A study of Mus musculus with 48 samples.

Results

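Combined treatment of primary mouse sarcomas was compared with untreated control, using 8 treated and 8 control tumours out of the 48 sequenced, across 17770 genes with enough counts to test. Both groups were taken from the sample labels and not from any measured value. Control tumours (0 Gy with isotype antibody) and treated tumours (20 Gy with muDX400, a murine anti-PD-1 antibody) arose in the calf muscle of p53FL/FL mice of 129/SvJae background, aged 6 to 10 weeks at induction. In every tumour of both groups an adenovirus carrying Cre recombinase had been injected to delete p53 locally, and the carcinogen MCA (300 µg) was given afterwards. Deletion is therefore shared by control and treated tumours, is limited to cells the virus reached, and leaves host cells that it did not reach with their alleles; which cells these are was not checked here. Mice received 200 µg of antibody just before the limb was irradiated or left at 0 Gy, at a tumour volume near 150 mm3, and tumours were harvested on day 3. A further 8 primary tumours given 20 Gy with isotype and 8 given anti-PD-1 at 0 Gy served for direct comparisons, and 8 allografts (4 control, 4 combined) for a comparison of tumour kinds; the allografts derive from 1 cell line injected into syngeneic mice.

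Ionising radiation breaks DNA and, through p53, induces arrest genes such as Cdkn1a. DNA fragments that reach the cytosol are known to start type I interferon signalling, which acts on a shared set of target genes, many of which carry an interferon response element in the promoter. PD-1 is an inhibitory receptor of activated T cells, and its ligand PD-L1, encoded by Cd274, is itself an interferon target. The antibody and the dose may therefore act on connected pathways. The comparison asks which genes differ on day 3 when both are given.

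Totals were 37.7 to 49.2 M counts in control tumours (median 41.9) and 34.7 to 51.4 M in treated tumours (median 39.8). Counts scaled to library size (CPM), normalised by edgeR's trimmed mean of M values, are given throughout. Mitochondrial genes took 0.371 to 1.62% of control and 0.649 to 2.32% of treated counts. Gm42418, a locus that overlaps ribosomal RNA sequence, took 0.957 to 3.30% of control counts and 1.12 to 7.19% of treated counts, with 7.19% and 6.48% in treated replicates 3 and 8 and at most 3.01% in the other treated tumours; its part in the results was not tested. Replicates were separate tumours, so p-values measure the spread between tumours. Xist was above 10 CPM in 5 of 8 control and 3 of 8 treated tumours, so the sexes were not balanced between groups. Mesenchymal markers were high in both groups, with Vim, encoding the filament protein vimentin, at 2921 to 5900 CPM in control tumours and 1742 to 4306 CPM in treated tumours. Trp53 itself ran from 20.0 to 27.98 CPM in control tumours (median 24.9) and from 21.5 to 52.5 CPM in treated tumours (median 31.6). Its change was 0.42 on the log2 scale and was not called (adjusted p = 0.149, edgeR's quasi-likelihood test with Benjamini-Hochberg adjustment), and a whole-gene count in tissue with host cells does not check the deletion.

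Skeletal muscle differed strongly from tumour to tumour. The summed level of 16 muscle genes ran from 80.9 to 7529 CPM in control tumours and from 19.7 to 102580 CPM in treated tumours, where replicates 3, 4 and 8 lay above every control tumour at 14101, 102580 and 30553 CPM. None of the 16 muscle genes was called by edgeR's quasi-likelihood test (median log2 difference 2.91), although 14 had an unadjusted p below 0.05; without those 3 tumours the median was -1.31. The effect on each gene group of leaving these 3 tumours out was worked out after the values were seen, and is given below for many of the groups. In bulk tissue, fewer cells of a type cannot be told apart from less RNA per cell.

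Combined treatment changed 2446 of 17770 genes (13.8%), with 1561 higher (8.78%) and 885 lower (4.98%) at an adjusted p below 0.05 in edgeR's quasi-likelihood test. Among these, 1337 (7.52%) differed by more than 2-fold. All 8 treated tumours lay above all 8 control tumours in 67 of the 17770 genes tested (0.377%), and below them in 36 (0.203%), called or not. Without the 3 muscle-rich treated tumours 1116 genes were called, 875 higher and 241 lower, of which 953 were also called with all 16 tumours and had the same sign. Leaving out single tumours gave 1761 to 3223 calls, with 544 genes lower without treated replicate 3 and 583 without replicate 4.

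**Figure D1:**
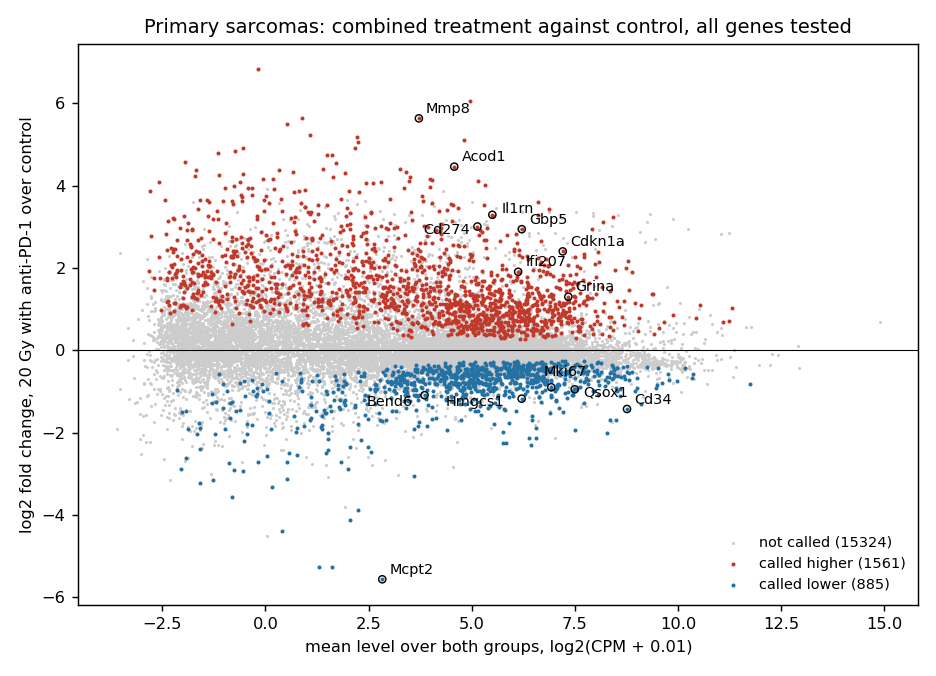
Log2 fold change of each of 17770 genes, 20 Gy with anti-PD-1 over control (y axis), against its mean level over both groups in log2(CPM + 0.01) (x axis). Red points are the 1561 genes called higher, blue the 885 called lower and grey the rest, and circles mark 14 labelled genes; Mmp8 lies highest and Mcpt2 lowest among these.

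Interferon genes had the highest shares of calls among the 35 lists. The lists were chosen with earlier results of these data known, so this ranking is a description only. Of 30 type I interferon response genes 27 were higher and 0 lower, with a median log2 change of 1.59 against -0.01 for all genes tested. Of 23 interferon gamma response genes 22 were higher and 0 lower, with a median of 2.25. Promoters of 2 of the type I genes and 2 of the interferon gamma genes are shown with the core of the interferon response element in capitals, which is GAAA, any 2 bases and GAAA again, or its reverse complement. The sequences are from RefSeq for GRCm38.p6, 5′ to 3′ in the direction of the gene, and lie at chr1:173741816-173741875 on the minus strand (Ifi207), chr19:34640760-34640838 on the plus strand (Ifit1), chr3:142496744-142496803 on the plus strand (Gbp5) and chr5:92349068-92349127 on the minus strand (Cxcl10).
Ifi207: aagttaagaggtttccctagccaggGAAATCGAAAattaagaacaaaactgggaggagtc
Ifit1: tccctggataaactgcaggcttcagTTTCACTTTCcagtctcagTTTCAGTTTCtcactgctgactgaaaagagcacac
Gbp5: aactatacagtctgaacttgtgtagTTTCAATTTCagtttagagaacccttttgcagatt
Cxcl10: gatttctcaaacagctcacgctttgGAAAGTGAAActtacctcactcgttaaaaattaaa

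The core was searched on both strands of the 250 bases before each start. It was found in 10 of 23 windows of the type I list (43.48%, 21 of 30 genes matched) and in 11 of 18 windows of the interferon gamma list (61.11%, 15 of 23 genes matched). The share was 7.81% over windows of all genes called higher, 2.18% over those called lower and 2.76% over all genes tested. The matches describe letters in a window and do not show binding.

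Ifi207 (ENSMUSG00000073490), a gene of the interferon-inducible Ifi200 family on chromosome 1, had the smallest p of all. It ran from 23.9 to 34.7 CPM in control tumours (median 30.8) and from 59.8 to 161 CPM in treated tumours (median 108.8), and the groups did not overlap. The log2 change was 1.91 ± 0.18 (SE, n = 8 per group, adjusted p = 1.36e-07 in edgeR's quasi-likelihood test). Rsad2, encoding the antiviral protein viperin, was higher by 2.29, Oas3, an enzyme that senses double-stranded RNA, by 2.23 and Zbp1, a nucleic acid sensor, by 2.04. Irf7, the factor that amplifies interferon output, rose from a mean of 198 to 746 CPM. Isg15, Mx2 and Usp18 did not pass the test, at log2 changes of 1.54, 1.23 and 1.36 and adjusted p of 0.0516, 0.102 and 0.0643 in edgeR's quasi-likelihood test.

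Levels of the type I list overlapped between groups in spite of the number of calls. Its summed level ran from 713 to 5683 CPM in control tumours and from 1745 to 9524 CPM in treated tumours, with control replicate 4 the highest control and treated replicate 5 the lowest treated tumour. Without the 3 muscle-rich treated tumours 26 of 30 genes were called and the median was 1.81.

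Among interferon gamma targets the guanylate-binding proteins, large GTPases that attack vacuoles of intracellular pathogens, rose together. Gbp5 ran from 7.60 to 29.7 CPM in control tumours (median 14.4) and from 17.05 to 288 CPM in treated tumours (median 108.8). Treated replicate 5, at 17.05 CPM, was the only treated tumour within the control range, and the log2 change was 2.94 ± 0.40 (adjusted p = 4.05e-05, edgeR's quasi-likelihood test). Cxcl9, a chemokine that draws CXCR3-bearing T cells, ran from 15.6 to 132.1 CPM in control tumours (median 34.3) and from 24.4 to 1357 CPM in treated tumours (median 420), a log2 change of 3.11 ± 0.65. Cxcl10, of the same function, changed by 2.40 ± 0.51 and Cxcl11 by 3.45. Ido1, which degrades tryptophan, changed by 4.39 from a mean of 0.112 to 2.36 CPM. Ciita, the master regulator of MHC class II genes, did not pass the test (log2 difference 1.64, adjusted p = 0.0945 in edgeR's quasi-likelihood test). The summed level of the list was 405 to 1912 CPM in control tumours and 640 to 7633 CPM in treated tumours, with treated replicate 5 lowest and the other 7 above every control tumour. With the 3 muscle-rich tumours left out, 20 of 23 genes were called.

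Calls also fell in runs of neighbouring genes. The longest was a run of 15 genes of the Ifi200 cluster on chromosome 1 (173468485 to 174031810), with log2 changes of 0.99 to 2.45. Other runs held 11 genes around Irgm1 and Tgtp1 on chromosome 11, 7 Slfn genes on chromosome 11, 6 Ifit genes on chromosome 19 and 6 Gbp genes on chromosome 5. These families are built of similar copies, so the division of reads between members is uncertain. Among runs of at least 4 genes, 1 was called lower, of 4 genes on chromosome 3.

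Cd274 (ENSMUSG00000016496), which encodes PD-L1, ran from 3.15 to 20.4 CPM in control tumours (median 5.62) and from 11.4 to 108.4 CPM in treated tumours (median 53.8). It was above the highest control tumour in 7 of 8 treated tumours, with replicate 5 within the control range, and its log2 change was 3.01 ± 0.42 (adjusted p = 6.16e-05, edgeR's quasi-likelihood test). Of 16 checkpoint and costimulatory genes 7 were higher and 0 lower (median 1.20). Besides Cd274 these were Pdcd1lg2, the gene of the second PD-1 ligand (log2 change 2.75), the costimulatory ligands Cd80 (2.24) and Cd86 (1.18), and the receptors Lag3 (1.90), Icos (1.92) and Havcr2 (1.12). Pdcd1, encoding the antibody's target, ran from 0.612 to 5.31 CPM in control and 0.412 to 24.8 CPM in treated tumours and was not called (log2 difference 1.22, adjusted p = 0.207 in edgeR's quasi-likelihood test). The count was 4 of 16 without the 3 muscle-rich tumours.

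Antigen presentation genes rose in part. Of 19 MHC class I genes 12 were higher and 0 lower (median 1.04), among them the peptide transporter genes Tap1 (log2 change 1.48) and Tap2 (1.12), the loading factor Tapbp (1.21), the transactivator Nlrc5 (1.58) and the non-classical H2-T23 (1.71). B2m, the light chain shared by class I molecules, did not pass (0.64, adjusted p = 0.144 in edgeR's quasi-likelihood test). Leaving out treated replicate 3 or 4 gave 8 calls and leaving out control replicate 4 gave 17, and 7 genes were called without the 3 muscle-rich tumours. Of 10 MHC class II genes only Ctss, a protease of the class II pathway, was called (1.37). That is 10%, near the 8.78% called higher over all genes. Without the 3 muscle-rich tumours 0 of the 10 were called by edgeR's quasi-likelihood test (adjusted p = 0.0517 for Ctss), and the list's median was -0.41 in place of 1.14; with muscle level as a covariate it was 0.51 with 1 call. Leaving out treated replicate 5 gave 3 calls and replicate 6 gave 2, and without treated replicate 4 the median was 0.34.

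**Figure D2:**
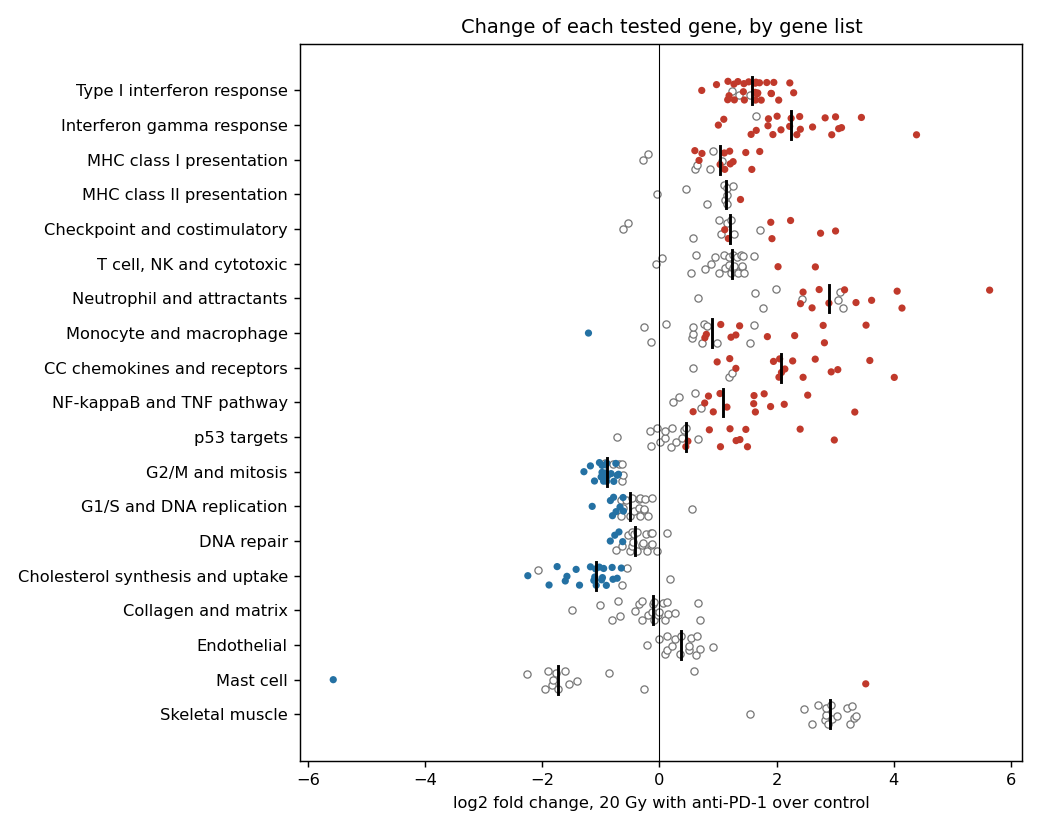
Log2 fold change of every tested gene (x axis) in 19 gene lists (y axis), 20 Gy with anti-PD-1 over control, 8 tumours each. Red and blue points are genes called higher and lower, open points are not called and black bars mark list medians; interferon genes lie to the right, G2/M and cholesterol genes to the left, and the muscle genes lie far right with no call.

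The count of T cell genes called depended on single tumours. Of 26 T cell, natural killer and cytotoxic genes 25 had a positive log2 difference, 9 had an unadjusted p below 0.05, and 2 (7.69%, against 8.78% of all genes tested) were called higher: Il2ra, the high-affinity interleukin-2 receptor chain (log2 change 2.03), and Ifng (2.66 ± 0.83, from a mean of 0.15 to 0.964 CPM). Leaving out control replicate 4 gave 6 calls of 26, leaving out treated replicate 5 gave 3, and leaving out control replicate 1, 2, 3 or 8 or treated replicate 3, 4 or 7 gave 1. The call of Ifng was lost in 10 of the alternatives tried, among them leaving out the 3 muscle-rich tumours (adjusted p = 0.142, edgeR's quasi-likelihood test). Cd3e, a chain of the T cell receptor complex, ran from 1.74 to 7.97 CPM in control tumours (median 2.55) and from 0.216 to 47.4 CPM in treated tumours (median 3.69). Treated replicates 3 and 4, at 13.9 and 47.4 CPM, lay above every control tumour, and replicates 5, 6 and 8 lay below every control tumour. The log2 difference was 1.35 ± 0.69 (adjusted p = 0.187, edgeR's quasi-likelihood test). Cd8a, the coreceptor of cytotoxic T cells, spread in the same way, from 0.608 to 40.9 CPM in treated tumours, with a difference of 1.26 ± 0.69.

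Gzmb, a granule protease of cytotoxic cells, ran from 4.76 to 115.4 CPM in control tumours (median 8.89) and from 4.92 to 147 CPM in treated tumours (median 62.1). Control replicate 4 held the 115.4 CPM, and 2 treated tumours exceeded it; the log2 difference was 1.61 ± 0.60 (adjusted p = 0.0682, edgeR's quasi-likelihood test). Over the list the median difference was 1.24 with all tumours and -0.01 without the 3 muscle-rich ones, which include both tumours highest in Cd3e; it ran from 0.35 without treated replicate 4 to 1.596 without control replicate 4. With muscle level as a covariate the list's median was 0.59 with 2 calls, and Ifng was no longer called (2.47, adjusted p = 0.0534 in edgeR's quasi-likelihood test). B cell genes gave 1 call of 12 (8.33%, near the 8.78% of all genes), Cd22 (1.67 ± 0.34), an inhibitory receptor of B cells, while Cd79a, part of the B cell receptor, ran from 0.385 to 1.05 CPM in control and from 0.118 to 3.35 CPM in treated tumours and was not called. The B cell list gave 3 calls without control replicate 4, 2 without treated replicate 1 and 2 without the muscle-rich tumours, with a median of -0.30.

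Of 19 genes of neutrophils and their attractants 11 were higher and 0 lower (median 2.89). Mmp8, the neutrophil collagenase, ran from 0.113 to 1.22 CPM in control tumours (median 0.452) and from 0.847 to 134.7 CPM in treated tumours (median 10.5), a log2 change of 5.64 ± 0.92 (adjusted p = 0.000203, edgeR's quasi-likelihood test). Treated replicate 6 was highest by far and replicate 1 alone lay within the control range. Csf3r, the receptor for the neutrophil growth factor G-CSF, changed by 2.45 ± 0.44, and the attractants Cxcl2 and Cxcl3 changed by 3.36 and 4.14. S100a8, a calcium-binding protein abundant in neutrophils, was 58.4, 200, 63.3 and 31.9 CPM in treated replicates 5 to 8 and 3.27 to 12.6 CPM in treated replicates 1 to 4, against 0.301 to 15.1 CPM in control tumours. It was not called (log2 difference 3.05 ± 1.23, adjusted p = 0.0923 in edgeR's quasi-likelihood test). Leaving the 3 muscle-rich tumours out, 10 genes of the list were called (median 3.08).

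Chemokines of the CC family and their receptors gave 15 calls higher of 18 tested and 0 lower (median 2.07). Ccl6, a myeloid attractant, ran from 6.74 to 27.1 CPM in control tumours and from 25.4 to 572 CPM in treated tumours, and changed by 3.59 ± 0.52. Ccl11, an eosinophil attractant, changed by 4.01, Ccl5 by 2.66 and Ccl2, the main monocyte attractant, by 1.95. With those 3 tumours left out, 9 were called.

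Of 24 monocyte and macrophage genes 11 were higher and 1 lower (median 0.89). Nos2, the inducible nitric oxide synthase of inflammatory macrophages, ran from 2.26 to 5.01 CPM in control tumours (median 4.16) and from 4.26 to 39.0 CPM in treated tumours (median 7.49). Treated replicates 3, 4, 6 and 7 lay above every control tumour, and the change was 1.84 ± 0.48 (adjusted p = 0.0102, edgeR's quasi-likelihood test). Genes of recruited monocytes, Ly6c2 (2.31) and Ccr2 (1.31), rose, as did the activating Fc receptor Fcgr4 (2.80 ± 0.49). Cx3cr1, a receptor of patrolling monocytes and resident macrophages, changed by -1.21 ± 0.42, at an adjusted p of 0.0497 in edgeR's quasi-likelihood test that passed 0.05 only narrowly and was lost in 20 of 26 alternatives. Csf1r, Mrc1 and Adgre1, broad macrophage genes, were not called, at log2 differences of 0.12, -0.14 and 0.75. The list gave 7 calls without the 3 muscle-rich tumours. Dendritic cell genes gave 3 calls of 14, Itgax (1.98), Batf3 (1.28) and Sirpa (0.82). Leaving out treated replicate 1, 5 or 6 gave 5 calls higher. With the 3 muscle-rich tumours left out, Itgax alone was called and the median was -0.34 in place of 0.36; with muscle level as a covariate it was -0.08 with 2 calls, and the call of Batf3 was lost in 13 of 26 alternatives.

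Acod1, which makes itaconate in activated macrophages, had the largest rise among called genes of at least 5 CPM whose groups did not overlap. It ran from 0.567 to 6.01 CPM in control tumours (median 1.48) and from 7.76 to 110 CPM in treated tumours (median 34.3), a log2 change of 4.46 ± 0.66. Il1rn, the interleukin-1 receptor antagonist, ran from 4.56 to 17.5 CPM in control tumours (median 7.02) and from 41.1 to 155 CPM in treated tumours (median 77.1), and changed by 3.29 ± 0.35 (adjusted p = 6.93e-07, edgeR's quasi-likelihood test). Il18bp, which neutralises interleukin-18, changed by 2.88 ± 0.35, and of 13 interleukin-1 family genes tested 6 were higher and 0 lower, and 4 were higher without the muscle-rich tumours. Il1b did not pass (1.77 ± 0.67, adjusted p = 0.0722 in edgeR's quasi-likelihood test).

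Genes of the NF-κB and TNF pathway were higher in 14 of 18 cases and lower in 0 (median 1.09), and 4 of the 18 did not overlap between groups, against 0.58% of all genes. Tnfaip3, an inhibitor of the pathway and also its target, ran from 13.5 to 21.8 CPM in control tumours and from 27.4 to 106.2 CPM in treated tumours, and changed by 1.61 ± 0.22. Tnf changed by 2.13, Il6 by 3.34, the adhesion molecule Icam1 by 1.79 and Bcl3 by 1.15 ± 0.20. This list had its score above the highest control in all 8 treated tumours, replicate 5 included, and 13 genes were called without the 3 muscle-rich tumours.

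**Figure D3:**
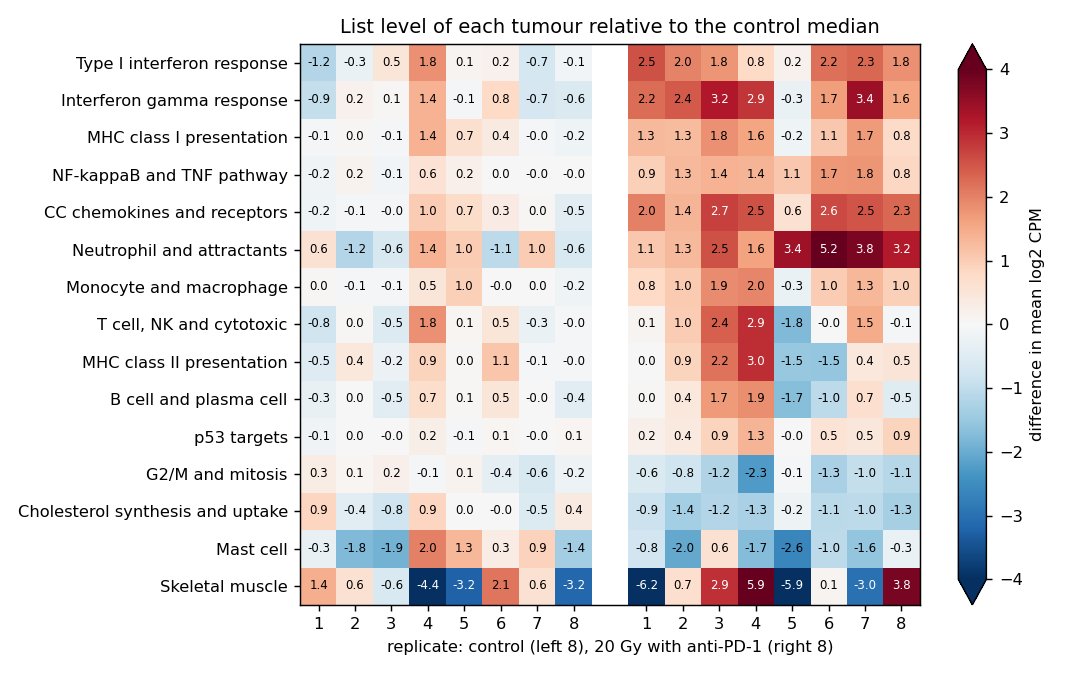
Mean log2 CPM of 15 gene lists (rows) in each of the 16 tumours (columns; control replicates 1 to 8 left, 20 Gy with anti-PD-1 replicates 1 to 8 right), as the difference from the control median of that list, written in each cell. Red is higher and blue lower; treated replicate 5 stays near control for interferon and G2/M genes, treated replicates 3, 4 and 8 are the muscle-rich tumours, and the NF-κB row is positive in all 8 treated tumours.

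Of 25 p53 target genes 11 were higher and 0 lower, in tumours whose p53 alleles were targeted for deletion in both groups. Cdkn1a (ENSMUSG00000023067), encoding the cyclin-dependent kinase inhibitor p21, ran from 27.9 to 85.4 CPM in control tumours (median 44.2) and from 79.0 to 475 CPM in treated tumours (median 229). Only treated replicate 5, at 79.0 CPM, fell within the control range, and the log2 change was 2.40 ± 0.25 (adjusted p = 6.04e-07, edgeR's quasi-likelihood test). Mdm2, the ligase that degrades p53 and is also its target, changed by 0.45 ± 0.12, from 45.1 to 81.3 CPM in control tumours to 52.8 to 103.4 CPM in treated tumours. Pmaip1 (1.04), Fas (1.21) and Bax (0.49), targets that act in cell death, passed the test, while Bbc3 (0.42), Sesn1 (-0.05) and Zmat3 (0.29) did not. The list's median was 0.45. Without the 3 muscle-rich tumours 2 of 25 genes were called and the median was 0.24. Whether the calls come from tumour cells or from host cells was not tested.

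Most G2/M genes and a smaller share of G1/S genes were called lower. All 25 G2/M genes had a negative log2 change (-1.29 to -0.63, median -0.90), and 19 were called. Mki67, the proliferation marker Ki-67, ran from 75.9 to 245 CPM in control tumours (median 166) and from 56.1 to 164 CPM in treated tumours (median 78.1); treated replicate 5, at 164 CPM, stood apart from the others, which lay at 90.3 CPM or below. The change was -0.90 ± 0.25 (adjusted p = 0.0168, edgeR's quasi-likelihood test). Ccnb2, a mitotic cyclin, ran from 39.0 to 97.9 CPM in control tumours and from 12.1 to 49.0 CPM in treated tumours, and changed by -1.29 ± 0.25, the largest drop of the list. Genes of G1/S and DNA replication were called lower in 8 of 25 cases (median -0.51), among them Tk1 (-1.15) and Rrm1 (-0.84), which supply nucleotides. Of 24 DNA repair genes 4 were lower (median -0.41), among them Brca2, Xrcc2 and Xrcc5. The calls of Mki67, Tk1, Rrm1, Xrcc2 and Xrcc5 were lost without the muscle-rich tumours, each with the same sign.

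These counts depended on which tumours were included. Without the 3 muscle-rich tumours 3 of 25 G2/M genes were called (median -0.64), and 0 of the G1/S (median -0.27) and repair genes (median -0.20) by edgeR's quasi-likelihood test; with muscle level as a covariate and all tumours kept, 23 of 25 G2/M genes were called. Leaving out treated replicate 3, 4, 6 or 8 gave 14 and leaving out replicate 5 gave 23. For G1/S genes the calls were 4 without control replicate 1 or 3 or treated replicate 4 or 8, and 13 without treated replicate 5; for repair genes treated replicate 5 moved the calls from 4 to 9, and the lowest count on leaving out a tumour was 2. The part that muscle content has in the proliferation result was not tested further.

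Of 25 genes of cholesterol synthesis and uptake 21 were called lower and 0 higher (median -1.08); of the 4 not called, 1 had a positive log2 difference (0.18), and 15 were called without the 3 muscle-rich tumours. Hmgcs1, which makes the HMG-CoA of the pathway, ran from 55.0 to 168 CPM in control tumours (median 105.7) and from 37.4 to 66.8 CPM in treated tumours (median 42.6). Only treated replicate 5 reached the control range, and the change was -1.18 ± 0.20 (adjusted p = 0.000272, edgeR's quasi-likelihood test). The enzyme genes Idi1 (-1.75) and Cyp51 (-1.58) and Srebf2 (-0.91), the factor that drives the genes, were also lower. Promoters of Ccnb2 (chr9:70421559-70421653, minus strand) and Hmgcs1 (chr13:119690101-119690325, plus strand), from RefSeq for GRCm38.p6, are shown because most genes of their lists were called lower; capitals mark CCAAT, or ATTGG on the other strand, and in Hmgcs1 also TCACCCCAC, a sterol response element.
Ccnb2: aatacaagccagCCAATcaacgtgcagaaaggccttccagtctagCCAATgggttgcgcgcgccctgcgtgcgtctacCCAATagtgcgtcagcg
Hmgcs1: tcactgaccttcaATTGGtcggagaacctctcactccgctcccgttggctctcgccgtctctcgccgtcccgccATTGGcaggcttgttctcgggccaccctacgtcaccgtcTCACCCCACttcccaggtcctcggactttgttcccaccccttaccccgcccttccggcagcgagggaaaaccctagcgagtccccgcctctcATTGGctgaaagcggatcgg

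CCAAT was found on either strand in 17 of 20 windows of the G2/M list (85%) and in 16 of 20 of the cholesterol list (80%), against 34.46% over all genes tested. It was also found in 17 of 23 G1/S windows (73.91%) and in lists without calls lower, with 7 of 9 windows for MHC class II (77.78%), 12 of 18 for MHC class I (66.67%) and 4 of 5 for erythrocyte genes (80%); over all genes called lower the share was 41.23%, and over those called higher 29.91%. TTTGAA, the cell cycle homology region, was found in 7 of 20 G2/M windows (35%) against 11.25%, and at like shares in 4 of 11 CC chemokine windows (36.36%) and 5 of 15 mast cell windows (33.33%). TCACCCCAC, added after the data were seen, was found in 1 of 20 cholesterol windows (5%) and 1 of 13 checkpoint windows (7.69%) against 0.54%. TTTCCCGC, an E2F motif, was found in 2 of 23 G1/S windows (8.7%), 3 of 21 repair windows (14.29%) and 1 of 10 windows of cyclin-dependent kinase inhibitors (10%) against 1.48%. No match says only that these letters are absent from the window.

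Structural gene lists gave few calls. Of 23 collagen and matrix genes 0 passed edgeR's quasi-likelihood test (median -0.11, 1 at an unadjusted p below 0.05), and of 16 endothelial genes 0 did (median 0.36, 3 at an unadjusted p below 0.05). Without the muscle-rich tumours 1 collagen and matrix gene was called lower (median -0.39), as was 1 without treated replicate 8 (-0.51), and the median was 0.03 without control replicate 3. Leaving out control replicate 7 or treated replicate 1 gave 2 endothelial calls higher, and the endothelial median was 0.14 without the muscle-rich tumours and 0.19 without treated replicate 7. Cd34, found on vascular and stromal precursor cells, was an exception outside those lists: it ran from 387 to 1179 CPM in control tumours and from 176 to 309 CPM in treated tumours with no overlap, and changed by -1.43 ± 0.24. Of 14 mesenchymal genes only Vim was called (-0.82 ± 0.20), which is 7.14% against 4.98% called lower over all genes. Vim was not called without the muscle-rich tumours (-0.63, adjusted p = 0.0838 in edgeR's quasi-likelihood test). Qsox1, which forms disulphide bonds in secreted proteins, was lower without overlap, at 182 to 304 CPM against 93.5 to 172 CPM (-0.95 ± 0.14).

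Of 15 mast cell genes 13 had a negative log2 difference and 2 a positive one (median -1.73), and 9 had an unadjusted p below 0.05. In each direction 1 was called (6.67% each way, near the 8.78% higher and 4.98% lower over all genes). Mcpt2, a mast cell protease, had the largest drop of all genes that the naming rule selected: it ran from 1.93 to 52.6 CPM in control tumours (median 4.56) and from 0.0196 to 1.10 CPM in treated tumours (median 0.177), a change of -5.57 ± 0.91 (adjusted p = 0.000229, edgeR's quasi-likelihood test). Mcpt8, a protease of basophils, changed in the other direction (3.52 ± 1.05), a call lost in 2 of 26 alternatives. The other 13 mast cell genes were not called; Tpsab1 and Cpa3, markers of mature mast cells, had differences of -1.81 and -1.61. Without the muscle-rich tumours the list's median was -2.39.

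**Figure D4:**
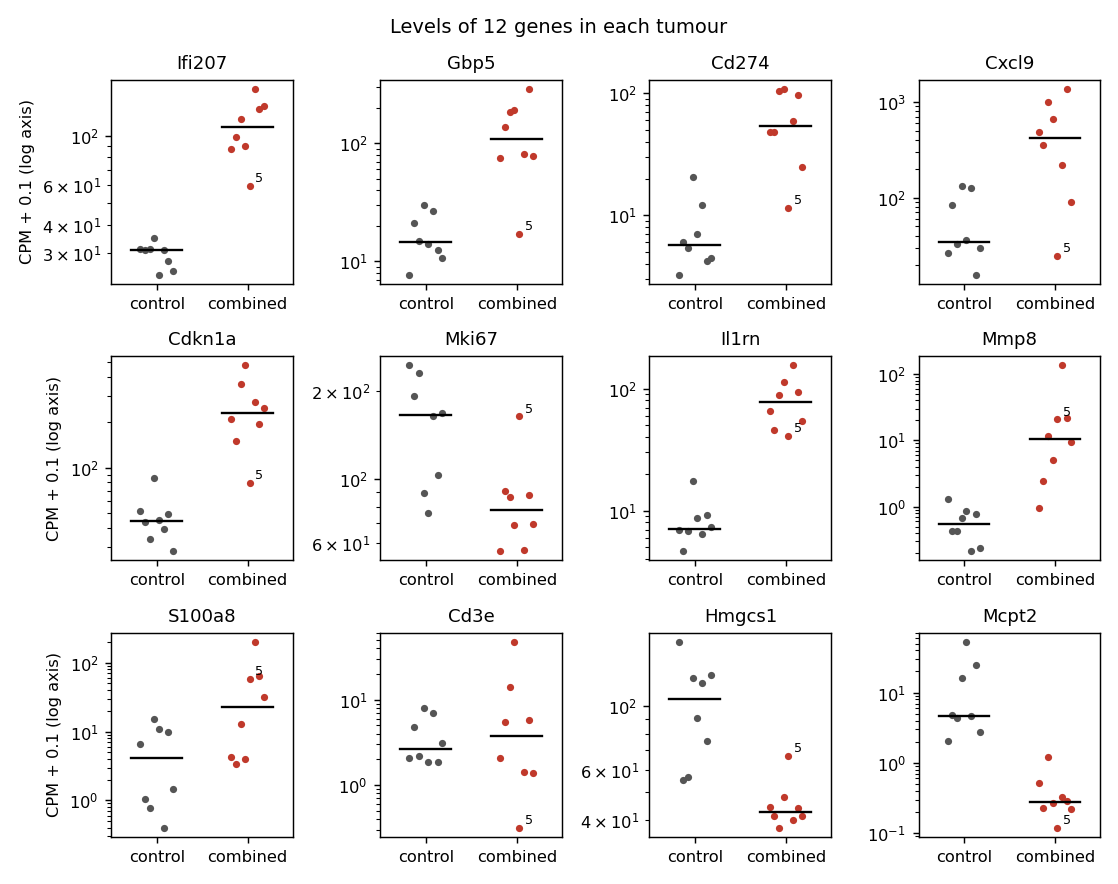
CPM + 0.1 on a log axis for 12 genes in each of 8 control (grey) and 8 combined-treatment (red) tumours, with black bars at the medians and treated replicate 5 marked. Ifi207, Il1rn and Mcpt2 separate the groups completely, Cd3e spreads in both directions in treated tumours, and replicate 5 lies nearest to control for Ifi207, Gbp5, Cd274, Cdkn1a, Mki67 and Hmgcs1.

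Calls in the remaining lists were as follows. Of 8 cyclin-dependent kinase inhibitor genes 7 had a negative log2 difference (median -0.52). Cdkn1a alone was called higher and 1 gene lower (12.5% each way, against 8.78% higher and 4.98% lower over all genes). Without the 3 muscle-rich tumours 1 was called higher and 0 lower by edgeR's quasi-likelihood test (median -0.40). Leaving out single tumours gave 0 to 3 calls lower in that list. Of 17 BCL2 family genes 7 were higher and 2 lower, with Mcl1, a survival factor, at 0.57 ± 0.14 without overlap and Bok at -1.15 ± 0.29, and without the 3 muscle-rich tumours 1 was higher and neither Mcl1 nor Bok was called. Of 14 NRF2 target genes 6 were higher (median 0.44), with Slc7a11, the cystine transporter, at 2.02 ± 0.49 and highest in treated replicates 2 and 5 (74.8 and 62.9 CPM). Leaving out control replicate 6 or 8 or treated replicate 2 gave 3 calls, and leaving out treated replicate 1 gave 7. With 20 Gy and isotype, against the same control tumours, 0 of the 14 were called by edgeR's quasi-likelihood test (median -0.21). The combination set directly against 20 Gy and isotype also gave 0 calls of 14 in edgeR's quasi-likelihood test (median difference 0.69). Of 20 hypoxia and glycolysis genes 4 were higher, all glycolytic: Hk2, Pfkp, Pfkfb3 and Pfkfb4, of which the last 2 were not called without the muscle-rich tumours. Of 16 immediate early genes 6 were higher, with Nr4a1 at 1.82 ± 0.41 and Atf3 at 1.51 ± 0.36, and 4 were without those tumours. The myogenic genes Myh3, Mymk and Myl4 were called higher, and their high values lay in the muscle-rich treated replicates 3, 4 and 8, without which 0 of 10 genes of that list were called by edgeR's quasi-likelihood test. That list also gave 0 calls without treated replicate 3 and 1 without control replicate 3, and 6 and 5 without treated replicates 1 and 5. Adipocyte genes gave 3 calls of 9 (Plin4, Lipe and Pnpla2; median 2.10). Without the muscle-rich tumours Pnpla2 alone was called and the median was 0.67, with muscle level as a covariate all 3 were and it was 1.04, and the call of Plin4 was lost in 12 of 26 alternatives. Matrix metalloproteinase and inhibitor genes gave 3 calls higher (Mmp8, Mmp12 and Mmp19) and 1 lower (Mmp16) of 19, and TGF-β pathway genes 1 higher (Tgfb1, 0.36) and 1 lower (Tgfb3, -1.39) of 18. As shares these were 15.79% higher and 5.26% lower for the first list and 5.56% each way for the second, against 8.78% higher and 4.98% lower over all genes. The call of Mmp12 was lost in 11 of 26 alternatives, that of Tgfb1 in 14 and that of Tgfb3 in 2, and Mmp19 was not called without the muscle-rich tumours (adjusted p = 0.0597, edgeR's quasi-likelihood test). Among Schwann cell genes only Egr2 was called of 9 (11.11%, near the 8.78% called higher over all genes). Its call was lost without the muscle-rich tumours (adjusted p = 0.0682, edgeR's quasi-likelihood test), when 1 gene was called lower and the median was -0.61 in place of 0.55. The Schwann median was 0.03 without treated replicate 4, when 1 gene was called in each direction, and 0.07 with muscle level as a covariate, and 2 genes were called higher without treated replicate 1 or 5. Of 5 keratinocyte and 6 erythrocyte genes 0 were called (1 and 0 at an unadjusted p below 0.05 in edgeR's quasi-likelihood test). Without the muscle-rich tumours the keratinocyte median was -0.22, over 7 genes tested, in place of 0.25. The erythrocyte median was then 0.24 in place of 0.71.

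The combination was set directly against its components. Compared with 20 Gy and isotype, it gave 0 calls among 17770 genes in edgeR's quasi-likelihood test (0.0%; smallest adjusted p 0.549, 1443 genes or 8.12% at an unadjusted p below 0.05), and DESeq2 gave 5. Those 5, chosen after their values were seen, were Pthlh, Snap25, Kif21a, Nqo1 (higher) and Rpl39l (lower). Nqo1, a detoxifying enzyme and NRF2 target, ran from 3.55 to 138.2 CPM in combined tumours and from 4.98 to 10.7 CPM with 20 Gy alone; replicates 2 and 5, at 138.2 and 95.9 CPM, carried the difference of 2.33 ± 0.57 (adjusted p = 0.549, edgeR's quasi-likelihood test). Kif21a, a kinesin motor, ran from 9.38 to 37.3 CPM against 4.14 to 16.3 CPM, with a difference of 1.32 ± 0.29. EdgeR gave 8 calls without the 3 muscle-rich tumours, among them the NRF2 targets Txnrd1 and Gclm.

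Radiation alone was also set against the same control tumours, and called 2575 genes (14.5%), 1395 higher (7.85%) and 1180 lower (6.64%). Cd274 changed by 2.90 with 20 Gy and isotype and 3.01 with the combination, Cdkn1a by 2.22 and 2.40, and Hmgcs1 by -1.40 and -1.18. Both comparisons share the 8 control tumours. The direct difference for Cd274 was 0.11 ± 0.39 and for Cdkn1a 0.18 ± 0.24. List medians were 2.03 and 1.59 for type I interferon, -0.84 and -0.90 for G2/M and -1.07 and -1.08 for cholesterol genes. Anti-PD-1 alone gave 0 calls against control by edgeR's quasi-likelihood test (0.0%; 412 genes or 2.32% at an unadjusted p below 0.05), with Cd274 at 0.73 and Cxcl9 at 1.28.

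Against anti-PD-1 alone, the combination called 1407 genes (7.92%), 1077 higher (6.06%) and 330 lower (1.86%). Cdkn1a changed by 2.46 and Ifi207 by 1.87 there, 29 of 30 type I interferon genes were higher and 18 of 25 cholesterol genes were lower. The interaction of dose and antibody gave 0 calls by edgeR's quasi-likelihood test (0.0%; smallest adjusted p 0.971, 756 genes or 4.25% at an unadjusted p below 0.05), and DESeq2 gave 1, Cck.

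**Figure D5:**
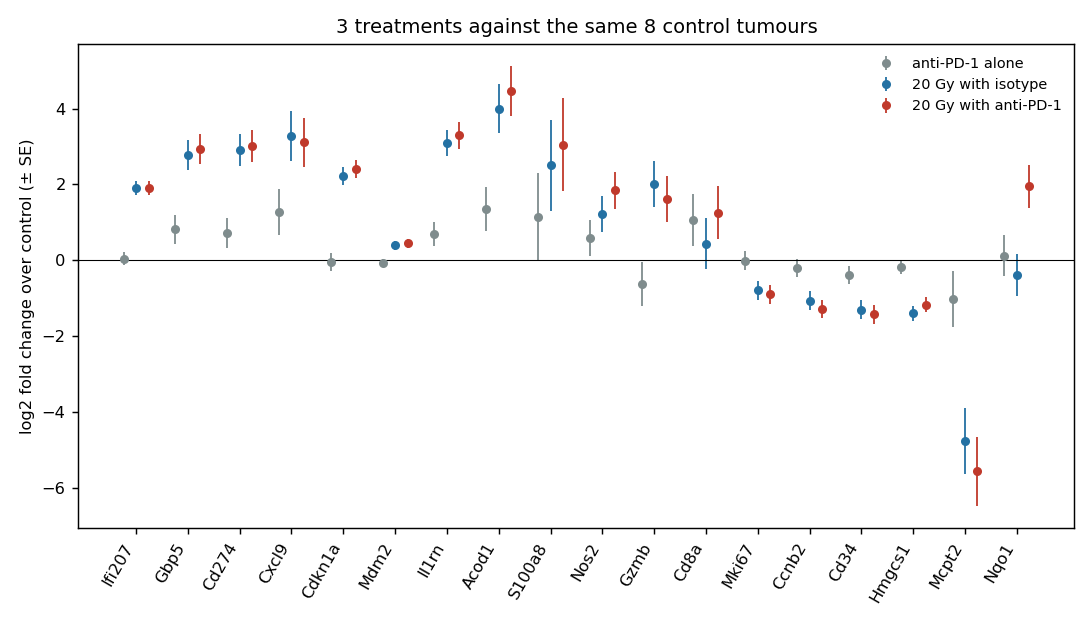
Log2 fold change over control (y axis, ± SE) of 18 genes (x axis) for anti-PD-1 alone, 20 Gy with isotype and 20 Gy with anti-PD-1, 8 tumours each against the same 8 control tumours. The points for 20 Gy with and without anti-PD-1 lie close together for most genes, Nqo1 shows the widest gap between them, and anti-PD-1 alone lies nearer to 0 than the combination for each of the 18.

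In the allografts the combination called 851 of 19327 genes (4.4%), 797 higher (4.12%) and 54 lower (0.279%), with 4 tumours per group, in a fit of all 48 tumours. A test of the difference between kinds gave 0 calls by edgeR's quasi-likelihood test (0.0%; smallest adjusted p 0.25, 1239 genes or 6.41% at an unadjusted p below 0.05) and 4 by DESeq2, among them Skint3, Abi1 and Nr4a1. Nr4a1, an immediate early gene, changed by 1.82 in primary tumours and by -1.59 in allografts, and the difference between kinds was 3.40 (adjusted p = 0.384, edgeR's quasi-likelihood test). Cdkn1a changed by 2.40 and 1.98 and Ifi207 by 1.91 and 2.08.

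The spread among treated tumours was set against that among control tumours. Distances between pairs of tumours of a group, taken as the root mean square of log2 CPM differences across the 500 genes of highest variance, averaged 3.00 in control and 3.88 in treated tumours, a difference of 0.886 (2-sided exact permutation test over 12870 splits, p = 0.0967). Without treated replicate 2 the p was 0.0246 and without treated replicate 6 it was 0.0479 (exact permutation tests). Without treated replicate 4 the difference was 0.423 (exact permutation p = 0.203), and without replicates 1 and 5 the exact permutation p was 0.267 and 0.242. Group means were not removed first, so splits that mix treated and control tumours also hold the difference between the groups. These p-values therefore do not test equal spread alone, and no conclusion on spread is drawn from them.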

How the data were processed

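RNA-seq libraries of poly(A) RNA were made with a stranded kit, per the labels' protocols. The authors deposited whole-number counts per Ensembl gene (36854 genes, 48 columns); 0 columns of other samples and 0 entries naming no gene were present. The table is named for a first run, so depths are those of this table. Trimmomatic 0.36, STAR, HTSeq and mm10 are named, per the submitters' processing notes, and use of strand in counting is not given in the sources used here, so antisense and overlapping genes are uncertain. Names came from a gene table for 36796 of 36854 genes, positions from GENCODE on GRCm38.

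From these counts, genes were filtered by group (filterByExpr) and scaled (TMM), and edgeR 4.0.16's quasi-likelihood F test was fitted to all 32 primary tumours (R 4.3.3) with adjustment by Benjamini-Hochberg and a threshold of 0.05. SE is the size of the log2 change divided by the square root of F. Common biological variation was 0.4995. On simulated data the fit called 14% of genes changed 1.5-fold, 58% at 2-fold, 84% at 4-fold and 96% at 8-fold, with 6 false calls of 132. Changes were planted in 200 of 17633 genes, fewer than were called in the data. Genes were drawn independently, so variation shared between genes was not simulated. Reads carry no molecular identifiers. Pairs of tumours within a group differed far beyond sampling noise (84.3 to 697 as chi-square over its degrees of freedom), so each library was counted once.

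Named genes were the 15 higher and 15 lower with the smallest p and at least 5 CPM, the 8 of largest change without overlap in each direction, up to 3 called genes per list and direction, a panel of 26 genes, and the 5 smallest p against 20 Gy alone. The members, the 35 gene lists and the panel were chosen with earlier results of these data known. Alternatives were DESeq2 1.42.0 (test and size factors), limma 3.58.1 voom, no filter, robust dispersion, muscle or Xist covariates, other sample sets and leaving out each tumour; leaving out the 3 muscle-rich tumours was added after seeing the data. Results for some genes are not reported here.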

Additional observations from a re-analysis of the deposited data

Results flagged for a closer look

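Of 330 groups of 8 tumours checked, 22 held a tumour set apart by a gap wider, relative to the group's range on the log2 scale, than Dixon's limit, and chance gives about 1 in 20. Treated replicate 5 was the tumour apart in 9 genes and 1 list. It was lowest for Cd22 (2.86 CPM), Fcgr1 (30.8), Gbp7 (42.8), Gzmb (4.92), H2-T23 (69.0), Slfn1 (30.4) and Tapbp (194), and highest for Hmgcs1 (66.8), Mki67 (164) and the cholesterol list (mean log2 CPM 4.68). Treated replicate 4 was lowest for Nuf2 (7.76 CPM) and Phf19 (3.86), treated replicate 1 for Clec4e (4.21) and treated replicate 8 for Mdm2 (52.8). Control replicate 4 was highest for H2-T23 (248 CPM), Mcpt8 (2.94), Pfkfb3 (73.2) and the NF-κB and TNF list (mean log2 CPM 5.11). Control replicate 5 was highest for Agbl2 (20.0 CPM) and lowest for the keratinocyte list (mean log2 CPM -1.06), and control replicate 7 was highest for Mymk (1.68 CPM) and lowest for Rrm1 (118.2).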

How the results depend on the processing

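No paired analysis was possible because the labels give the groups no shared replicate numbers, and numbers given in accession order pair nothing. Of the named genes called, 77 stayed called under the 26 alternatives in which single genes were refitted (the 2-fold minimum is not among them) and 37 lost the call in at least 1, and all calls shared with an alternative had the same sign. The 2446 calls became 3636 in a fit of all 48 tumours, 3310 with DESeq2, 2695 with limma-voom, 1384 with only the 2 groups compared, 1337 with a 2-fold minimum and 1116 without the 3 muscle-rich tumours (78.41% higher, against 63.82%), and 1761 to 3223 on leaving out single tumours. Against 20 Gy alone the 0 calls became 5 with DESeq2 and 8 without the muscle-rich tumours. Against anti-PD-1 alone the 1407 calls became 2188 with DESeq2, 2156 in a fit of all 48 tumours, 822 with only the 2 groups, 574 without the muscle-rich tumours and 896 to 1928 on leaving out single tumours, the lowest without treated replicate 4. The interaction of dose and antibody gave 1 call with DESeq2. The interaction with tumour kind gave 4 with DESeq2, 3 without the muscle-rich tumours and 0 to 1 on leaving out single tumours, the 1 without allograft treated replicate 4. The difference in spread was 0.423 to 1.13 on leaving out single tumours, and 0.423 without treated replicate 4. Without the muscle-rich tumours Myh3 (-0.59) and Myl4 (-0.21) reversed. These smaller sample sets also have fewer tumours, and beyond that the cause was not tested. No scaling moved the median of all genes by over 0.1. Counting error matters most below 1 CPM, and in simulation with 8 tumours a group 14% of 1.5-fold changes were called.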
